A study of Mus musculus with 8 samples.

Results

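The pair of miR-143 and miR-145 and the group of miR-199 and miR-214 are microRNAs (miRNAs, short RNAs that lower the translation or stability of messenger RNAs) known from smooth muscle cells, stromal cells and, in the liver, hepatic stellate cells. They were chosen by name and took up 6 of the 567 mouse miRNAs on the array: mmu-miR-143, mmu-miR-145, mmu-miR-199a-5p, mmu-miR-199b, mmu-miR-199b* and mmu-miR-214, with the mouse prefix left out below. The livers of 4 db/db mice were compared with those of 4 db/+ mice, and the labels give the C57BL/KsJ background. The db/db mouse carries a leptin receptor mutation on both alleles and is obese and diabetic. The db/+ mouse carries that mutation on 1 allele and is the nondiabetic control, so no group was free of it. No treatment was given in the labels, and the age of the animals is not given in the sources used here. Total RNA of the whole organ, 100 ng per mouse, was hybridised to a 1-colour array, 1 array per animal.

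Stellate cells store vitamin A in the resting liver, and after injury they turn into contractile cells that lay down collagen. miR-143 and miR-145 are processed from 1 primary transcript and are known for keeping vascular smooth muscle in its contractile state. miR-199a and miR-214 also share a transcript and are known to rise when stellate cells are activated in a fibrotic liver. Whole-liver RNA cannot place a miRNA in a cell type, and fewer cells of a type and less RNA per cell cannot be told apart in it.

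The sequences of the miR-199 and miR-214 group show what its probes read, here for 3 of its 4 members and for miR-199a-3p. They are mature miRNAs from RefSeq, assembly GRCm38.p6, written 5′ to 3′, with the seed (bases 2 to 8, the part that pairs with target messenger RNAs) in capitals.

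miR-199a-5p: cCCAGUGUucagacuaccuguuc

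miR-199b (the 3p arm): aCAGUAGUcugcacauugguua

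miR-199a-3p: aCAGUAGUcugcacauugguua

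miR-214 (the 3p arm): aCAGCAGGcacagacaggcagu

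The 3p arms of miR-199a and miR-199b are the same molecule, with 0 differing bases, and the array files list both names for the probes called miR-199b. Their signal is therefore the sum over the gene copies. The 3 seeds differ from each other. The miR-214 seed was shared in the table with miR-761. The hairpin of Mir199a-2, one of the gene copies, holds 2 of the measured arms, given in capitals with miR-199a-5p first: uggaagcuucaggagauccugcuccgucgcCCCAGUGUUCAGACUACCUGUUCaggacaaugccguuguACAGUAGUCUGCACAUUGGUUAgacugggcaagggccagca.

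In the coordinates of the array files (mm9), the target of the miR-199a-5p probes lies at chr1:164147979-164147997. That of the miR-199b probes lies beside it at chr1:164148016-164148035, and that of the miR-214 probes follows at chr1:164153578-164153590, with 5580 bases between the miR-199a-5p and miR-214 targets. RefSeq places Mir199a-2 and Mir214 inside the long noncoding gene Dnm3os, which lies within Dnm3, a dynamin gene. It places the other miR-199a gene, Mir199a-1, within Dnm2, also a dynamin gene. The miR-199b* target lies at chr2:32174006-32174027, and RefSeq places Mir199b within Dnm1, another dynamin gene.

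No member passed the test between strains with limma (adjusted p under 0.05), while 19 of the 127 miRNAs tested did (15%), 12 higher and 7 lower in db/db. That split was 6 higher and 8 lower with 75th percentile scaling, 8 and 6 with quantile normalization and 10 and 11 with cyclic loess. The median log2 fold change of all tested miRNAs was then 0.02, 0.06 and 0.03 in place of 0.15. Levels are given as log2 of the signal after each array was scaled to the median of the miRNAs detected on all 8 arrays, with 4.59 as the floor on scaled signal (2.20 on the log2 scale). miR-199b was the only member detected on all 8 arrays. miR-143, miR-199a-5p, miR-199b* and miR-214 were detected on all 4 db/db and on 3 db/+ arrays, each time all but db/+ replicate 4. They entered the test through db/db alone, and miR-145 did not enter it.

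The brightness of the arrays differed most among the controls. Before scaling, db/+ replicate 4 had 0.210 times the typical signal and db/+ replicate 1 had 5.63 times, while the db/db arrays lay between 0.847 and 1.06. On db/+ replicate 4 the lowest signal of a detected miRNA was 25.9 after scaling, and the 5 members other than miR-199b lay under it, from 5.88 for miR-214 to 24.0 for miR-143. Between 91 and 255 mouse miRNAs were detected per db/+ array and between 133 and 166 per db/db array. The arrays shared 1 slide, on which each strain filled a row of its own, so the effects of row and strain cannot be told apart.

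**Figure D1:**
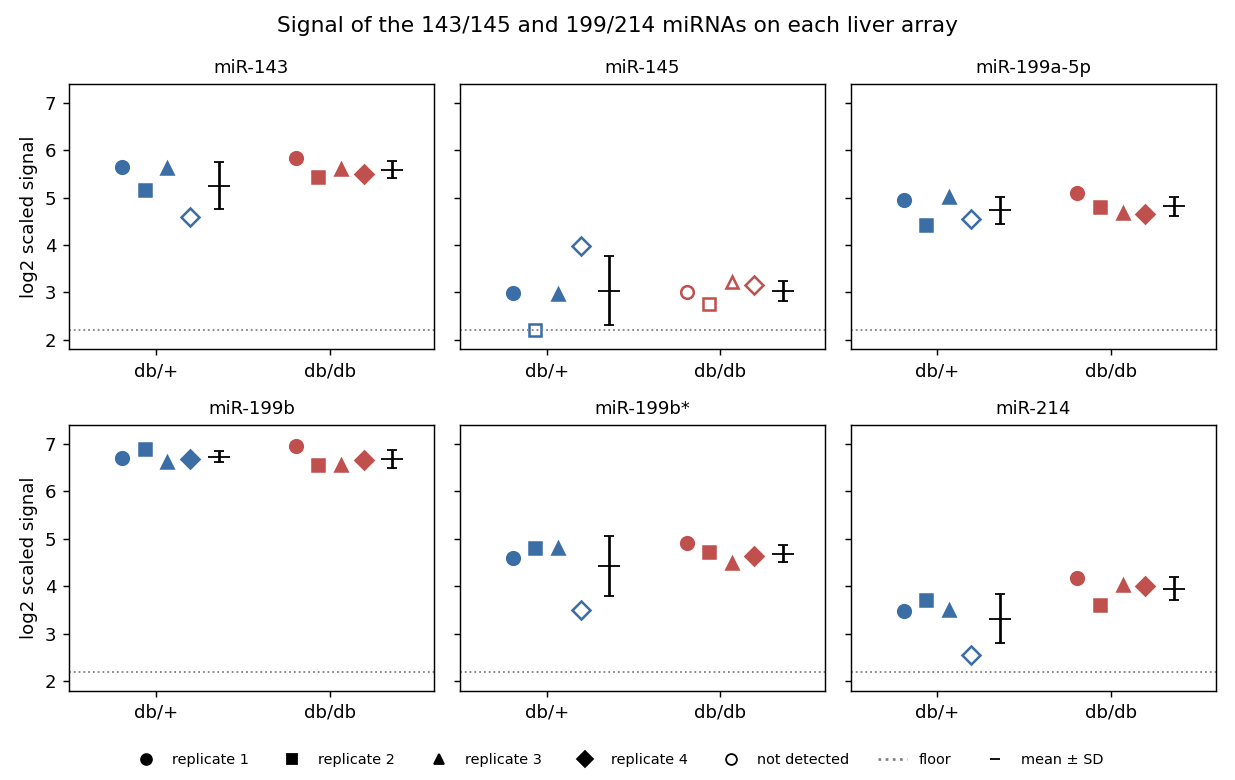
log2 scaled signal of each of the 6 miRNAs on each of the 8 arrays, by strain; symbols give the replicate, open symbols arrays on which the miRNA was not detected, bars the mean ± SD over 4 arrays, and the dotted line the floor. The db/+ replicate 4 value is the lowest of all 8 for miR-143, miR-199b* and miR-214, and the strains overlap in every panel.

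miR-143 is known in smooth muscle for its part in the contractile phenotype. In db/+ its log2 signal was 5.64, 5.15, 5.62 and 4.59 in replicates 1 to 4, and in db/db it was 5.83, 5.42, 5.59 and 5.49. The strains overlapped, and db/+ replicate 4 was the lowest array. The mean was 5.25 ± 0.50 (SD, n = 4) in db/+ and 5.58 ± 0.18 in db/db, a log2 fold change of 0.33 ± 0.24 (SE; limma adjusted p = 0.362) with a 95% interval of -0.20 to 0.87. Without db/+ replicate 4 the log2 fold change was 0.01. Both probes of miR-143 were above the floor on every array, and they differed between strains by 0.28 and 0.37. These differences take in db/+ replicate 4, on which miR-143 was not detected.

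miR-145, its partner, is known to repress pluripotency factors and to promote smooth muscle differentiation. Its log2 signal was 2.99, 2.20, 2.98 and 3.97 in db/+ and 3.00, 2.76, 3.22 and 3.16 in db/db. It was detected on db/+ replicates 1 and 3 only and on 0 of 4 db/db arrays, and the value of db/+ replicate 2 was at the floor. The highest value, 3.97, came from db/+ replicate 4, where it was not detected. The strain means were 3.04 in both, and with detection on 2 of 8 arrays no fold change is given. The probes' targets lie at chr18:61808853-61808868 for miR-143 and chr18:61807520-61807533 for miR-145 (mm9), 1319 bases apart, and RefSeq places both genes inside the long noncoding gene Carmn. The mean over the pair was 4.14 ± 0.31 in db/+ and 4.31 ± 0.15 in db/db. It takes in the miR-145 values of arrays on which miR-145 was not detected, so it is a description only.

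In the miR-199 and miR-214 group the mean over the 4 miRNAs was 4.80 ± 0.32 in db/+ and 5.03 ± 0.17 in db/db. By array it was 4.93, 4.96, 4.98 and 4.32 in db/+ and 5.28, 4.92, 4.94 and 4.99 in db/db. db/+ replicate 4 was the low array and db/db replicate 1 the high one, while the other 6 lay between 4.92 and 4.99.

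miR-199b, whose probes read the 3p arm of all gene copies, had the smallest spread of the members in db/+. Its log2 signal was 6.70, 6.89, 6.62 and 6.69 in db/+ and 6.95, 6.55, 6.56 and 6.65 in db/db. The db/db range enclosed the db/+ range, and on this miRNA db/+ replicate 4 did not stand apart. The log2 fold change was -0.05 ± 0.15 (SE, n = 4 per strain; limma adjusted p = 0.874). Its 95% interval ran from -0.38 to 0.28, which on the linear scale is 0.771-fold to 1.22-fold.

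miR-199a-5p comes from the other arm of the miR-199a hairpin and is known to be raised in fibrotic liver. Its log2 signal was 4.94, 4.41, 5.00 and 4.55 in db/+ and 5.10, 4.80, 4.68 and 4.66 in db/db. The db/db values lay within or just above the db/+ range. The log2 fold change was 0.08 ± 0.18 (SE; limma adjusted p = 0.796; 95% interval -0.33 to 0.49), and it took a negative sign in 9 of 24 alternative settings, among them 75th percentile scaling and cyclic loess. The signal rested mainly on 1 of its 2 probes, since the other was at the floor on 3 arrays.

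miR-199b* is the opposite arm of the Mir199b hairpin. Its log2 signal was 4.59, 4.81, 4.80 and 3.50 in db/+ and 4.91, 4.72, 4.49 and 4.64 in db/db. The db/db range enclosed the values of db/+ replicates 1 to 3, and db/+ replicate 4 lay below it. The log2 fold change was 0.26 ± 0.28 (SE; limma adjusted p = 0.553; 95% interval -0.36 to 0.89), and without db/+ replicate 4 it was -0.14. The probe above the floor on every array differed between strains by 0.08, and the other, at the floor on 2 arrays, by 0.45.

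miR-214, which is known to move with miR-199a in activated stellate cells, had the largest difference between strains among the members tested. Its log2 signal was 3.48, 3.71, 3.50 and 2.56 in db/+ and 4.16, 3.60, 4.03 and 4.01 in db/db. All db/db arrays but replicate 2 lay above every db/+ array, and db/+ replicate 4 was the lowest. The log2 fold change was 0.64 ± 0.25 (SE, n = 4 per strain), or 1.56-fold with a 95% interval of 1.05 to 2.31. The limma p was 0.0303 before adjustment and 0.143 after it. These values take in the db/+ replicate 4 signal, which was not detected, and do not allow for miR-214 having entered the test through db/db alone. The two-sided exact permutation p was 0.0571, where 4 against 4 arrays cannot go below 0.0286. At an unadjusted p under 0.05, 22 of the 127 tested miRNAs (17.3%) were higher in db/db. For 20 of the 127 (15.7%) all db/db arrays lay above all db/+ arrays, and no member was among these.

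The value of miR-214 moved with 1 array, the background correction, the probe summary and the scaling. Without db/+ replicate 4 its log2 fold change was 0.29 (limma adjusted p = 0.297). The normexp background correction replaced the scanner software's own subtraction and added an offset of 50. With it the log2 fold change of miR-214 was -0.64, in the opposite direction and at the same size. The limma p was then 0.0278 before adjustment and 0.175 after it. On every array but db/+ replicate 1 (63.0), the subtracted miR-214 signal before scaling was 1.24 to 17.8, under that offset. The median over all 127 tested miRNAs also moved between these settings, from 0.15 to -0.18. With the deposited raw median intensities, which carry no background subtraction, miR-214 was at -0.34. With the mean of log2 probe values in place of the linear mean it was 0.17 (limma adjusted p = 0.457). It was 0.25 with cyclic loess (limma adjusted p = 0.358) and 0.078 with no scaling. Only 1 of the 2 miR-214 probes was above the floor on every array, with a difference of 0.35, while the other was at the floor on 5 of 8 arrays. db/+ replicate 2 detected no miRNA at a lower scaled signal than miR-214, at 13.1.

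The series names SAM (significance analysis of microarrays) at a false discovery rate under 5% as its test. SAM adds a constant, the fudge factor, to each standard error, and miR-214 was called or not depending on it. With the constant picked by the coefficient of variation, the version computed first, SAM called 18 of 127 miRNAs and no member. With the 5th percentile of the standard errors, taken up after that result had been seen, it called 33 of 127 (26%), miR-214 among them. With the second constant and without db/+ replicate 4 it called 33 of 133 and no member. miR-214 was thus called in 1 of 3 SAM versions.

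**Figure D2:**
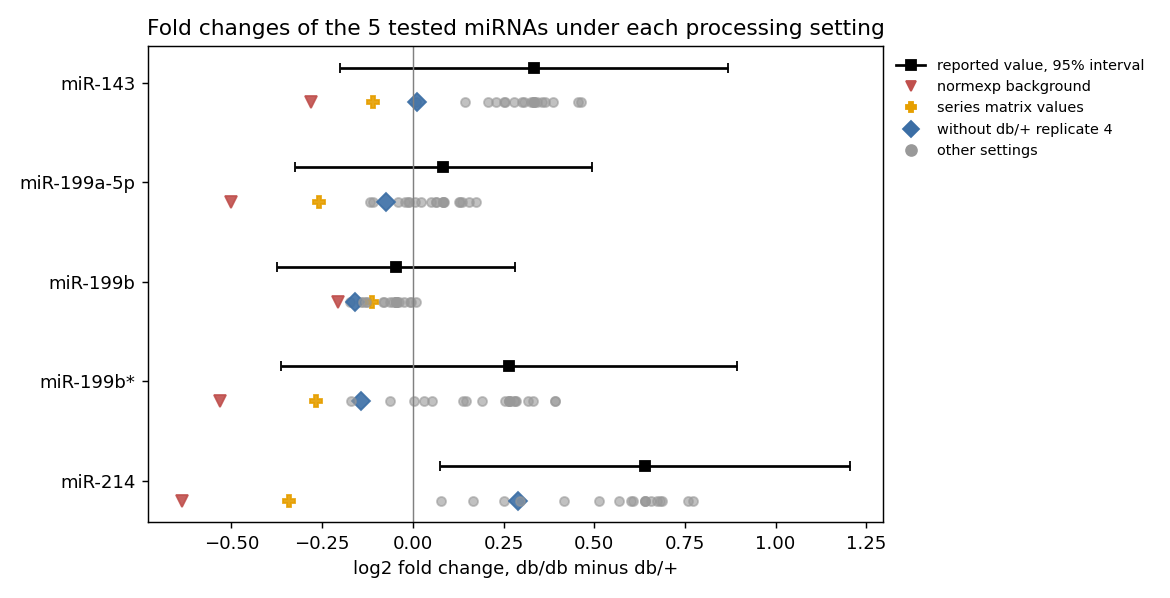
log2 fold change (db/db minus db/+) of the 5 tested miRNAs. Black squares with bars give the reported value and its 95% interval, and the symbols under each give the value under every other setting on the log2 scale, with 3 settings marked. The normexp and series matrix values lie below 0 for all 5, and the values without db/+ replicate 4 lie at 0.01 for miR-143 and 0.29 for miR-214.

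In the authors' deposited table, which gives log transformed scores of unstated base, 5 members had a score and miR-145 was not among those listed. For miR-214 the authors' deposited table gave 1.01, 1.24, 1.10 and 0.43 in db/+ and 1.24, 1.16, 1.14 and 1.13 in db/db. The highest and the lowest score both came from db/+, from replicates 2 and 4. miR-199b ranged from 1.51 to 1.64 over the 8 arrays in the authors' deposited table.

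Differences between miRNAs within an array are free of a single scaling factor per array as long as neither value is at the floor, and only their shift between strains is compared here. miR-199a-5p and miR-214 share a transcript, but Mir199a-1 is a further gene of miR-199a, so their comparison is not within that transcript alone. The difference of miR-199a-5p minus miR-214 ran from 0.71 in replicate 2 to 2.00 in replicate 4 of db/+. In replicates 1 to 4 of db/db the difference was 0.94, 1.20, 0.65 and 0.65. It was smaller in db/db on average but db/+ replicate 2 lay inside the db/db range. The shift was -0.56 (two-sided exact permutation p = 0.0857, adjusted p = 0.686 over the 8 differences tested). Without db/+ replicate 4, on which neither of these 2 miRNAs was detected, the shift was -0.36. miR-199b minus miR-199b*, the 3p signal of all copies against the opposite arm of 1 copy, was 2.30 ± 0.61 in db/+ and 1.99 ± 0.11 in db/db (SD, n = 4; exact permutation adjusted p = 0.943). miR-199a-5p minus miR-199b shifted by 0.13 (exact permutation adjusted p = 0.943). The shift of miR-143 against miR-145 was not tested, since 1 of its values was at the floor.

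**Figure D3:**
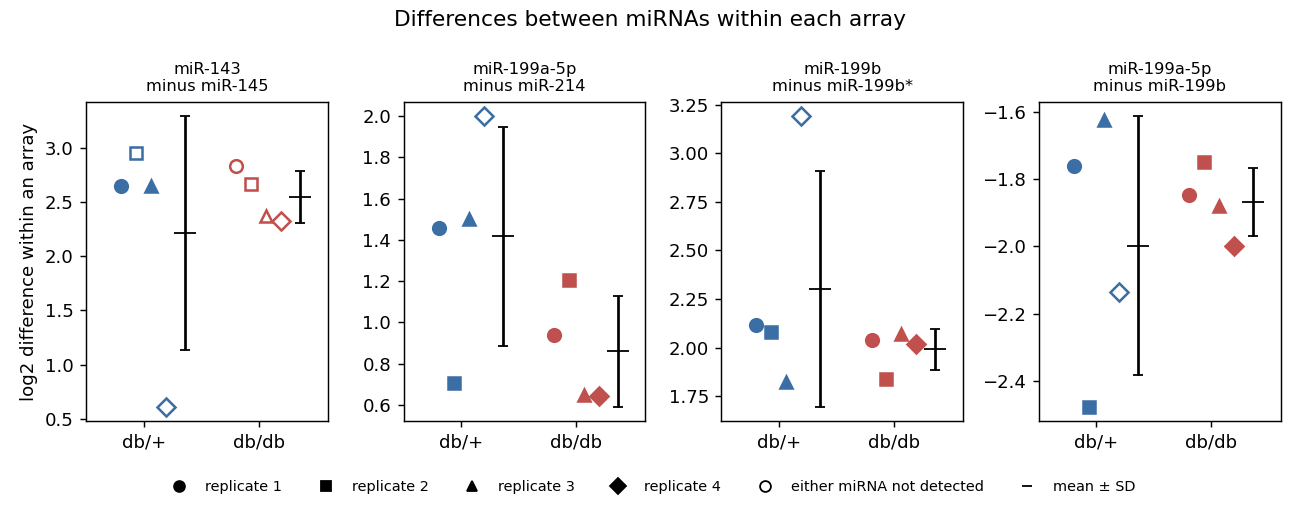
log2 difference between 2 miRNAs within each array, by strain, for 4 pairs; the vertical axes differ between panels, open symbols mark arrays on which either miRNA was not detected, and bars give mean ± SD over 4 arrays. The shift of miR-199a-5p minus miR-214 is -0.56, and in the first panel db/+ replicate 4 lies at 0.61 while the other db/+ arrays lie at 2.65 to 2.95.

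Against miR-122, the main hepatocyte miRNA, the members showed no shift past the test either. miR-122 itself was at 15.38 ± 0.70 in db/+ and 15.48 ± 0.06 in db/db (SD, n = 4; limma adjusted p = 0.874). The shifts of the 5 members tested ran from -0.15 for miR-199b to 0.54 for miR-214 (exact permutation adjusted p = 0.943 for each).

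Across the 8 arrays, after the strain means were removed, each tested member was compared with the other tested miRNAs. Members made up only 5 of the 127 tested, so a closest miRNA that is not a member says little. The Pearson correlations given here are descriptions over 8 values that share the scaling and the array's brightness, and the median over all pairs of tested miRNAs was 0.119. These correlations take in db/+ replicate 4, on which miR-143, miR-199b* and miR-214 were each at their lowest and not detected. miR-214 ran closest to miR-671-5p (0.968), miR-126-5p (0.903) and miR-199b* (0.873). With miR-199a-5p, encoded on the same transcript and also by Mir199a-1, its correlation was 0.235, rank 47 of 126. miR-143 ran closest to miR-101b (0.963), miR-101a (0.925) and miR-200a (0.911). Its correlation was 0.809 with miR-199b* (rank 12), 0.782 with miR-214 (rank 15) and 0.151 with miR-199b (rank 47). miR-199b* ran closest to miR-340-3p (0.922), miR-126-5p (0.894) and miR-101a (0.889). The closest to miR-199a-5p were miR-802 (0.761), miR-101b (0.749) and miR-143 (0.748). For miR-199b they were miR-487b (0.827), miR-21 (0.752) and miR-212 (0.694), and its correlation with miR-199a-5p was 0.09.

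Over all 127 tested miRNAs, 12 rose and 7 fell past the threshold (19, or 15%). Of 13 other miRNAs known from stellate activation and fibrosis, 10 were tested, and past the threshold 0 rose and 1 fell. This was miR-21, known to promote fibrosis, which went from 13.73 ± 0.25 to 12.95 ± 0.09. The difference was -0.78 with an SE of 0.16 over 4 arrays per strain (limma adjusted p = 0.00846). With normexp, the series matrix values or no scaling, 0 of the 127 tested miRNAs passed as lower in db/db. The median over the 10 was -0.28, beside 0.15 over all 127 tested, and 4 of the 10 had a positive log2 fold change. The list was not split by whether a miRNA promotes or opposes fibrosis, so its median gives no direction for fibrosis. The median over the 5 members tested was 0.26, which is given as a description only, since 4 of them entered the test through db/db. The scaled signal summed over the other stellate and fibrosis list was 19562 to 29079 in db/+ and 14867 to 16036 in db/db. This sum is linear, so miR-21, the brightest of the list, weighs most in it. Over the 6 members the sum was 183 to 228 in db/+ and 210 to 271 in db/db.

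miRNAs of other liver cell types were read on the same arrays. Their counts stand beside 12 higher and 7 lower among all 127 tested miRNAs (15% together). Of 3 leukocyte miRNAs tested of 6, miR-142-3p and miR-223, both abundant in blood cells, fell (log2 fold changes -1.10 and -0.74, limma adjusted p = 0.0164 and 0.0434). With normexp, the series matrix values or no scaling, 0 miRNAs passed as lower in db/db, so these falls depend on the processing. The summed signal of the list, in which miR-142-3p and miR-223 weigh most, was 424 to 530 in db/+ and 237 to 320 in db/db. Of 3 bile duct epithelium miRNAs tested of 6, miR-200b and miR-203, known from epithelia, rose (0.81 and 0.94, limma adjusted p = 0.00788 and 0.0281). The sums of this list were 76.8 to 115 in db/+ and 139 to 190 in db/db. Both miR-200b and miR-203 were detected on 3 db/+ and all 4 db/db arrays. They thus entered the test through db/db alone, which the p-values do not allow for. None of 6 hepatocyte, 2 endothelial and 1 erythroid miRNAs tested passed the threshold. Of the hepatocyte miRNAs 4 of 6 had a positive log2 fold change, with a median of 0.12. The smallest p-values of these lists belonged to miR-101a (-0.55), miR-126-5p (0.28) and miR-451 (0.45). The 4 striated muscle miRNAs found on the array were detected on 0 of 8 arrays. The part of these other cell types in the members' values was not tested.

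**Figure D4:**
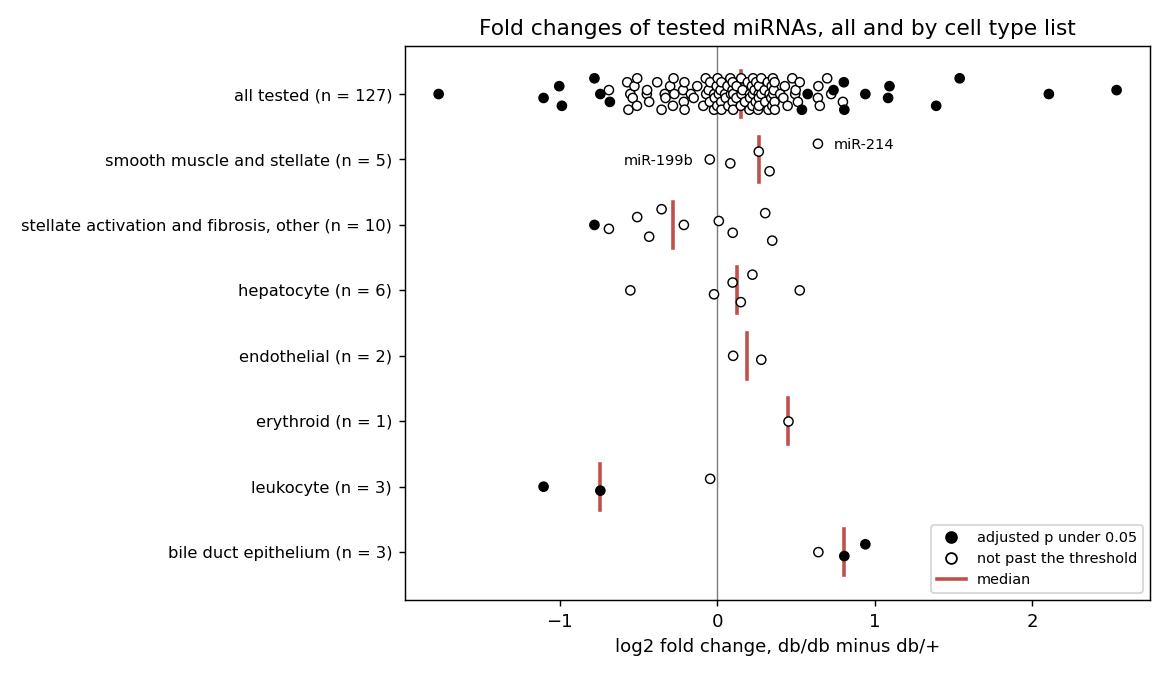
log2 fold changes (db/db minus db/+) of all 127 tested miRNAs and of the tested members of each cell type list; filled points passed the limma threshold, red bars give medians, and the vertical spread of the points has no meaning. None of the 5 points of the smooth muscle and stellate list is filled, and they run from -0.05 for miR-199b to 0.64 for miR-214.

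The opposite arms miR-145* and miR-214* also had probes and were detected on 0 of 8 arrays.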

How the data were processed

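Per the labels' protocols, total RNA from frozen liver was labelled with Cy3 and read on mouse miRNA arrays from Agilent, 1 animal per array. The spot intensity values came from Agilent Feature Extraction 9.5.3.1 and had been background-subtracted, per the file headers. The 0 or 1 flags for detection, saturation and outliers are other values, also per the file headers. The deposited series matrix held raw median intensity, matching the scanner files in each of 12493 rows. The authors also deposited a log transformed score for some of the miRNAs. Its base is not given in the sources used here.

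Of the 11540 miRNA spots, outliers were dropped, as were all control spots, and 0 were saturated. Spots and probes were averaged, and arrays were scaled to the median of the miRNAs detected on all 8. Values were floored at 4.59 and put on a log2 scale, starting from the background-subtracted spot intensity and not from the raw median intensity of the series matrix. On db/+ replicate 4 values under 25.9 were not reliably measured. miRNAs detected on all 4 arrays of a strain entered limma 3.58.1 (R 4.3.3, strain as the only term, Benjamini-Hochberg over 127 miRNAs, 0.05). Within-array differences used exact permutation tests. The number of arrays limits the precision.

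The miRNAs and lists were chosen with earlier results of these data known. Named were the members, miR-122, the 3 closest miRNAs to each member, and from each list those past the threshold or the smallest p. Lists were hepatocyte, other stellate and fibrosis, endothelial, erythroid, leukocyte, bile duct and striated muscle. miR-885-5p and miR-208 were not found under those names. Alternatives changed the scaling, background, floor, filter, probe summary, test, block and arrays used. RefSeq (GRCm38.p6) was used for gene names and sequences, array files (mm9) for coordinates. limma and SAM were tried on simulated log2 values with a common spread. The scaling, floor, filter and probe averaging were not simulated. Plots used matplotlib 3.10.9.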

Additional observations from a re-analysis of the deposited data

Results flagged for a closer look

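miR-199b* on db/+ replicate 4 had a log2 signal of 3.50, far below the 4.59 to 4.81 of the other db/+ arrays. The within-array difference of miR-143 minus miR-145 on db/+ replicate 4 was 0.61, against 2.65 to 2.95 on the other db/+ arrays. Neither miR-143, miR-145 nor miR-199b* was detected on that array, and the miR-145 value of db/+ replicate 2 was at the floor. Over the 32 groups of 4 arrays examined, chance flags about 1 in 20.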

How the results depend on the processing

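With limma no member passed the threshold under any setting; the lowest adjusted p over 119 alternative values was 0.0935, for miR-214 with the replicate block. Replicate numbers 3 and 4 are in the titles of both strains; deviations of same-numbered arrays correlated at 0.04 and 0.31, so the numbers were not taken as pairs. With the replicate block 20 miRNAs passed and miR-214 had a log2 fold change of 0.67.

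The number of miRNAs past the threshold, 19 as reported, was 2 with normexp, 12 with the higher floor, 4 with no filter, 3 with the deposited scores, 1 with the series matrix values, 42 with array weights, 9 without db/+ replicates 1 and 4, and 33 with SAM (1 member) or with SAM without db/+ replicate 4, a setting added after seeing the data. With no scaling limma called 0, and 1 had an unadjusted p under 0.05. Leaving out 1 array at a time gave 11 (without db/db replicate 2) to 20, and 12 without db/db replicate 3.

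Log2 fold changes of miR-143, miR-199a-5p, miR-199b* and miR-214 were -0.28, -0.50, -0.53 and -0.64 with normexp and -0.11, -0.26, -0.27 and -0.34 with the series matrix values. miR-199a-5p was at -0.042 with 75th percentile scaling, -0.12 with cyclic loess, -0.0096 with the higher floor and -0.11 with array weights. miR-199b* was at -0.062 with no scaling and -0.17 without db/+ replicates 1 and 4. The cause was not tested. Leaving out 1 array at a time gave 0.01 to 0.46 for miR-143, -0.074 to 0.17 for miR-199a-5p, -0.16 to 0.0076 for miR-199b, -0.14 to 0.39 for miR-199b* and 0.29 to 0.77 for miR-214.

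Shifts of within-array differences against miR-122 ran, over arrays left out in turn, from -0.17 to 0.64 for miR-143, -0.32 to 0.33 for miR-199a-5p, -0.34 to 0.12 for miR-199b, -0.33 to 0.49 for miR-199b* and 0.10 to 0.65 for miR-214. That of miR-199a-5p minus miR-199b ran from -0.029 to 0.26, that of miR-199b minus miR-199b* from -0.47 to -0.015 and that of miR-199a-5p minus miR-214 from -0.79 to -0.36. Without db/+ replicate 4 the last 2 were -0.015 and -0.36, and miR-214 against miR-122 was 0.10. Both shifts with miR-214 had no value in 4 of the 8 leave-outs, since a value was at the floor. Floored values left 7 of 8 shifts without a value under normexp and under the higher floor, and miR-214 without a fold change under the higher floor. Scaling to the median over all miRNAs was not run, since that median was not above 0 on an array.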
